A study of Mus musculus with 8 samples.

Results

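The 10 genes described here encode the core of the T cell receptor and its coreceptors in the mouse: the signalling chains Cd3d, Cd3e, Cd3g and Cd247, the constant regions Trbc1 and Trbc2 of the receptor's beta chain, the coreceptors Cd4, Cd8a and Cd8b1, and the kinase Lck. They were chosen by name among the 49585 genes of the deposited table, and all 10 were found in it. GENCODE M21 places Cd3d, Cd3e and Cd3g on chromosome 9, Cd247 on chromosome 1, Lck on chromosome 4, and the other 5 genes on chromosome 6. Levels refer to their exons. The RNA came from the brachiocephalic artery, a branch of the aortic arch that carries plaques in this model. All mice lacked ApoE and ate a high-fat diet that began at 12 weeks of age. In 4 samples the mice had received 250 micrograms of a Dll1 blocking antibody (clone HMD1-5) into the peritoneum 2 times weekly, and in the 4 control samples the same dose of non-immune IgG. The labels do not give the length of treatment or say that each sample was 1 animal, so p-values cover only sample-to-sample spread, part of which may be technical.

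T cells recognise peptides held by MHC molecules through the paired alpha and beta chains of the receptor. The CD3 chains and the zeta chain (Cd247) carry the signal inward, CD4 or CD8 binds MHC class II or class I, and Lck, held by the coreceptors, phosphorylates the chains. The same complex is assembled in the thymus, where immature T cells carry both coreceptors and the recombinases Rag1 and Rag2 cut the receptor genes. T cells also enter the arterial wall in atherosclerosis, and Dll1 is a ligand of Notch receptors, a pathway that acts in T cell development.

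RefSeq promoter windows on build GRCm38.p6, from 250 bases before to 50 bases after a gene's start, were at hand for 6 of the 10 genes (Cd3d, Cd3e, Cd3g, Cd247, Cd8a and Lck), in 7 windows. The pair Cd3d and Cd3g is shown because these genes lie head to head on chromosome 9, with 1355 bases between their starts. The Lck pair is shown because this gene has a proximal promoter known for its activity in thymocytes and a distal promoter also used by mature T cells, 15269 bases apart on chromosome 4. Each window is written 5′ to 3′ on the strand of its gene, and capitals mark matches on either strand to short motifs of 5 factor families of T cells, spelled out after the windows.
Cd3d, chr9:44981536-44981835, plus strand: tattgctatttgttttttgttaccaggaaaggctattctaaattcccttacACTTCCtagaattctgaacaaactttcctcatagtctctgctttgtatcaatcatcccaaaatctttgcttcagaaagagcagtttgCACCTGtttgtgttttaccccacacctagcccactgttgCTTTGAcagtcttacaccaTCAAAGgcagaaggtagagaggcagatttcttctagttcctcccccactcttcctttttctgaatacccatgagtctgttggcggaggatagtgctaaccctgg
Cd3g, chr9:44980382-44980681, minus strand: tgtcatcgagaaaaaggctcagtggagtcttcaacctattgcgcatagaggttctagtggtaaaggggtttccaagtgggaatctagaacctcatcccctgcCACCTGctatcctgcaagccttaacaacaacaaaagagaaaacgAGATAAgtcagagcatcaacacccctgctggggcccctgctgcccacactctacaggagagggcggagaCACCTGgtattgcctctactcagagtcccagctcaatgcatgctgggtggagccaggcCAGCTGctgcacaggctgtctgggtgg
Lck proximal, chr4:129558323-129558622, minus strand: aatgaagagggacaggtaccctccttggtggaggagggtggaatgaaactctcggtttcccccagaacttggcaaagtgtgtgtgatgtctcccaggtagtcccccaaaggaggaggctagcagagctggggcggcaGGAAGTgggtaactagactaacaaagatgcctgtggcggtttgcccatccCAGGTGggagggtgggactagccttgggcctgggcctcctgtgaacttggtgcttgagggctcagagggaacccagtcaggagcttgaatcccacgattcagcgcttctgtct
Lck distal, chr4:129573592-129573891, minus strand: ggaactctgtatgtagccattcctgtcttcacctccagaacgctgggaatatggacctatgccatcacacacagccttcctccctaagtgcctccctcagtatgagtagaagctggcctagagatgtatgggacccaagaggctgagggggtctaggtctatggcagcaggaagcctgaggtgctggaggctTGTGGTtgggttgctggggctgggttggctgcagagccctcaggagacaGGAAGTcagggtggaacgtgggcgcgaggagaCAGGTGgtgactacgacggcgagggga
The Cd3d window held 2 TCF/LEF matches, 1 E box and 1 ETS match, and the Cd3g window held 3 E boxes and 1 GATA match. Both Lck windows held 1 E box and 1 ETS match, and the distal window also held 1 RUNX match. Among 32851 mouse windows of the same length, 51.4% held the E box, searched as CANCTG. The letters used for the ETS family, GGAAGT, were in 23.8% of those windows. For the RUNX family the search string was TGTGGT, which 16.8% of the windows held. The TCF/LEF family, which includes TCF-1, was searched by CTTTGA, with matches in 16.0%. Letters of the GATA family, here AGATAA, were present in 11.2%. No match overlapped another motif in the windows shown. The matches describe letters only, and the gene-level table does not separate transcripts from the alternative Lck starts.

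Levels were deposited as TPM, a length-adjusted share of all transcripts, in 8 libraries. The column names carry 045 or 076, numbers that the labels do not explain, and libraries with the same number are called a set. In set 045 the controls were C1IA and C2IA, and in set 076 they were G1IA and G2IA. The antibody pair of either set was named D1IA and D2IA. The sets stood far apart. Reads recovered from the TPM steps numbered 11063031 to 13817014 per library, but those on nuclear protein-coding genes numbered 663122 to 2729260 in set 045 and 7422732 to 8071491 in set 076. The RNA gene Rn7s1 made up 62.7% to 72.8% of all TPM in the former and 31.4% to 43.0% in the latter. Levels are therefore also given on a protein-coding scale, on which the nuclear protein-coding genes of each library sum to 1000000. Within set 045, C1IA and D2IA held Xist at 262 and 309 on that scale, and the other 6 libraries held it at 0.0761 to 2.33. Markers of arterial smooth muscle were found in every library, with Acta2 at 1898 to 2284 on the protein-coding scale in set 076 and 240 to 530 in set 045.

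In set 076 the 10 genes varied more between libraries of 1 treatment than between the treatment means. For 9 of the 10, the antibody library D1IA was highest, the IgG library G1IA came next, the antibody library D2IA followed, and the IgG library G2IA was lowest. In no gene did both antibody libraries lie on 1 side of both IgG libraries, against 19.4% of all 17300 genes tested there. In set 045 the genes were close to the limit of detection, with no value above 9 reads or 0.312 TPM. That TPM, of Trbc2 in D2IA, is 17.7 on the protein-coding scale, above the 5.47 of G2IA in set 076. In bulk tissue, fewer T cells and less RNA per T cell cannot be told apart.

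**Figure D1:**
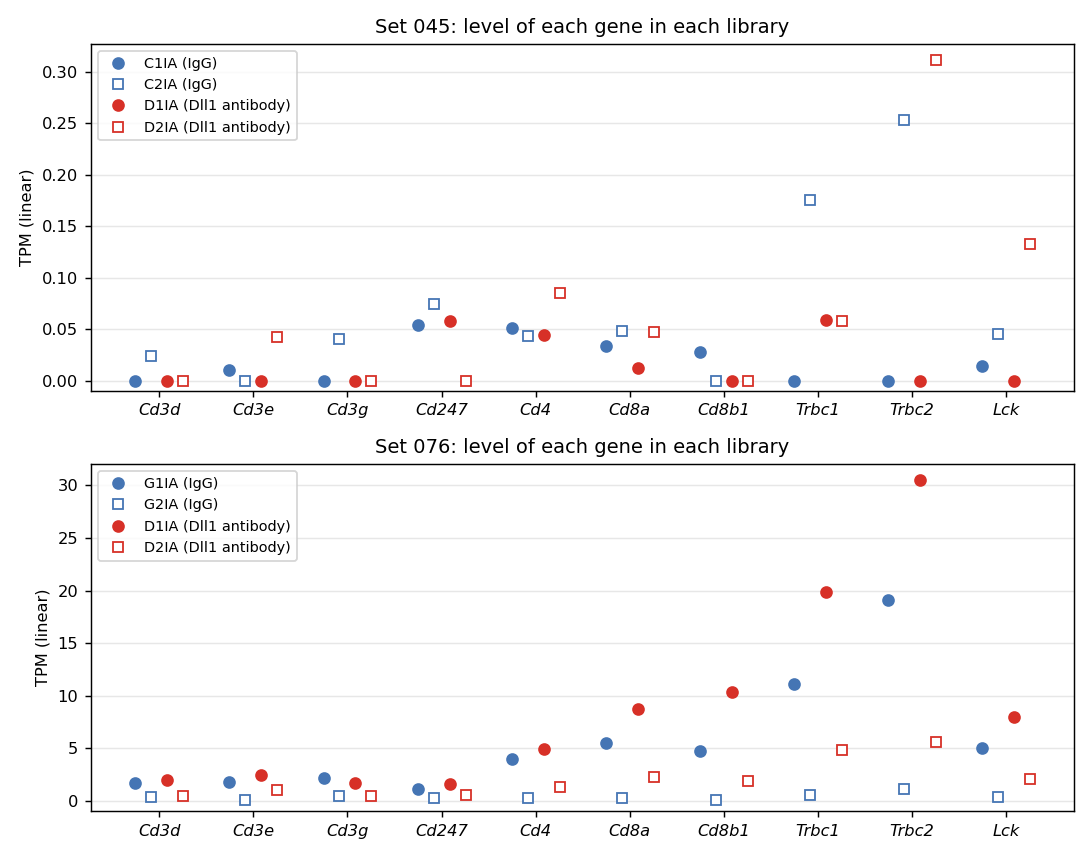
TPM of each of the 10 genes in every library, with set 045 in the upper panel and set 076 in the lower panel on separate linear axes; blue marks IgG, red the Dll1 antibody, and each point is 1 library. In set 076 the filled symbols (G1IA and D1IA) lie above the open symbols (G2IA and D2IA) for every gene. Set 045 reaches 0.312 TPM, but protein-coding genes hold a smaller share of TPM there, so TPM is not compared between the panels.

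Among the CD3 chains, Cd3d (the delta chain) was at 1.66 and 0.344 TPM in G1IA and G2IA, and 2.03 and 0.485 in D1IA and D2IA of set 076. Cd3e (the epsilon chain, which pairs with either of the other chains) was at 1.78, 0.0873, 2.42 and 1.03 TPM in the same order. In both genes 1 library of each treatment was high and the other low, and the treatments overlapped. Cd3g (the gamma chain) was at 2.13, 0.463, 1.74 and 0.505 TPM, and was the 1 gene with a higher level in G1IA than in D1IA. Cd247, which encodes the zeta chain, was at 1.15, 0.301, 1.64 and 0.516 TPM, the narrowest spread of the 10 genes between the IgG libraries. Cd247 overlaps Pou2f1 on the opposite strand, and the counting is not stated to use strand, so its reads may include some of that gene's.

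The beta chain constant genes had the highest levels per length. Trbc2 was at 19.1 and 1.16 TPM in G1IA and G2IA, and 30.5 and 5.57 in D1IA and D2IA, and Trbc1 was at 11.1, 0.595, 19.9 and 4.85 TPM. Trbc2 ranked first and Trbc1 second among the 10 genes in each of the 4 libraries of set 076, with 27.1% to 34.0% and 15.5% to 23.7% of their summed TPM. The coding parts of these neighbours are nearly identical, so the split of reads between them is uncertain. In G2IA the ranks rested on 9 and 5 reads.

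The coreceptors showed the same order of libraries. Cd4 (the MHC class II coreceptor, also made by some myeloid cells) was at 3.97 and 0.221 TPM in G1IA and G2IA, and 4.91 and 1.28 in D1IA and D2IA. Cd8a (the CD8 alpha chain, also found on some dendritic cells) was at 5.46, 0.269, 8.76 and 2.24 TPM, and Cd8b1 (the beta chain, largely confined to T cells) at 4.70, 0.0601, 10.4 and 1.93 TPM. The Cd8b1 value of G2IA was a single read. The ratio of Cd8a to Cd8b1 TPM was 1.162 in G1IA, 0.843 in D1IA and 1.161 in D2IA. In G2IA it was 4.49, from 11 reads and 1 read. The ratio of Cd4 to Cd8a TPM was 0.727 and 0.820 in the IgG libraries and 0.560 and 0.573 in the antibody libraries, where the IgG value of 0.820 rested on 10 and 11 reads. Of 13 ratios of 2 genes computed in set 076, 6 did not overlap between the treatments, and 5 of the 7 between members did not. The ratios share genes, and those of Cd8a to Cd8b1 in G1IA and D2IA were nearly equal. The share of such ratios among all pairs of genes was not computed, so nothing is read from these counts. With 2 libraries on each side the smallest p an exact two-sided permutation test allows is 0.333. In set 045 the ratio of Cd4 to Cd8a was 0.902 in C2IA and 3.61 and 1.80 in the antibody libraries, with C1IA (5 and 3 reads) between 0.902 and 1.80, from 1 to 8 reads of either gene, so the order of the treatments was the opposite of that in set 076.

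Lck was at 5.04 and 0.335 TPM in G1IA and G2IA, and 7.98 and 2.10 in D1IA and D2IA. Between libraries of 1 treatment the 10 genes differed by large factors on the protein-coding scale. G1IA exceeded G2IA in 10 of 10 genes, by 3.63-fold (Cd247) to 74.1-fold (Cd8b1) with a median of 16.3-fold. D1IA exceeded D2IA in 10 of 10 genes, by 2.66-fold (Cd3e) to 6.16-fold (Trbc2) with a median of 4.35-fold. The mean of the antibody libraries over the mean of the IgG libraries was smaller than these factors, from 0.868-fold (Cd3g) to 2.64-fold (Cd8b1) with a median of 1.83-fold.

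Set 045 gave few reads on these genes. Trbc2 was at 0 and 0.253 TPM in C1IA and C2IA, and 0 and 0.312 in D1IA and D2IA, and Trbc1 at 0, 0.175, 0.0591 and 0.0576 TPM. Cd4 was at 0.0509, 0.0435, 0.0439 and 0.0856 TPM, and Cd8a at 0.0338, 0.0482, 0.0122 and 0.0474, the only genes of the 10 with reads in each of these libraries. Lck was at 0.0140, 0.0449, 0 and 0.133 TPM. No library was high for all of these genes. Cd247 was at 0.0539, 0.0740, 0.0581 and 0 TPM, and Cd3e at 0.0101, 0, 0 and 0.0423. Cd3d and Cd3g had reads in C2IA alone, at 0.0241 and 0.0402 TPM, and Cd8b1 in C1IA alone, at 0.0277. Over its 4 libraries together, Cd247 had 23 reads, Cd4 21, Lck 13, Cd8a 12, Trbc2 9, Cd3e and Trbc1 5 each, Cd3g 3, and Cd3d and Cd8b1 1 each. Of the 10 genes, C1IA listed 4 at 0, C2IA 2, D1IA 6 and D2IA 4. The 95% exact Poisson interval of a count of 0 reaches 3.69 reads. In D1IA, the library with the fewest protein-coding reads, that is worth 27.8 on the protein-coding scale for Trbc2 and 10.6 for Cd3d.

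Summed reads placed G2IA with set 045. The 10 genes together took 12.2 reads for each 1000000 protein-coding reads in G2IA (95% exact Poisson interval 9.85 to 14.9, from 93 reads), and 13.9 in set 045 pooled (11.3 to 17.1, also 93 reads). The single libraries of set 045 lay at 10.7 and 11.4 (C1IA and C2IA) and at 19.6 and 19.4 (D1IA and D2IA). The other libraries of set 076 lay higher, at 129 in G1IA (121 to 137), 238 in D1IA (227 to 249) and 44.2 in D2IA (39.8 to 49.1). These intervals cover counting error only. Gene by gene, G2IA fell within the range of the 4 libraries of set 045 for 6 of the 10 genes, above it for Cd3d and Cd3g, and below it for Cd4 and Cd8a. D1IA lay above that range for all 10 genes, and G1IA and D2IA for 9 each, with Cd247 the exception in both.

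**Figure D2:**
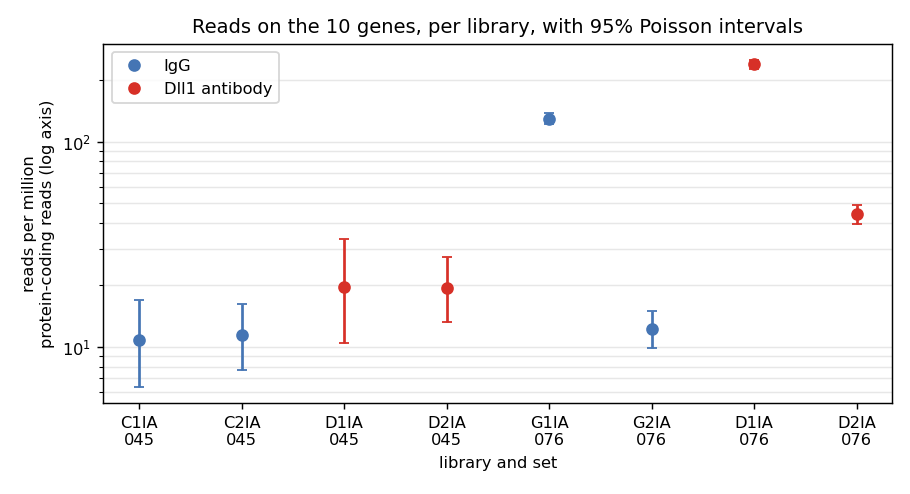
Reads on the 10 genes together per 1000000 nuclear protein-coding reads in each library, on a log axis; bars are 95% exact Poisson intervals, blue is IgG and red the Dll1 antibody. G2IA at 12.2 lies among the libraries of set 045 (10.7 to 19.6), and G1IA at 129 and D1IA at 238 stand above all others.

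Within set 076 no treatment difference passed the test for any of the 10 genes. The test was limma on log2 of the protein-coding scale plus 1, two-sided, with Benjamini-Hochberg adjustment over all genes with a mean of at least 1 and a threshold of 0.05. It called 0 of the 10 genes, where 9 of 17300 genes (0.0520%) were called, all lower with the antibody, 8 of them immunoglobulin genes. None of the 10 had an unadjusted p under 0.05, against 282 of all genes, and limma-voom on recovered reads called 0 of all genes. The fitted differences, antibody minus IgG, ran from -0.13 (Cd3g) to 1.98 (Cd8b1) with a median of 1.24, against a median of 0.00 over all genes tested, and 9 of 10 were positive, against 49.5% of all genes. The standard errors were 0.73 to 1.58, the adjusted p was 1.00 for each of the 10 genes, and the smallest unadjusted p was 0.267 (Cd8b1).

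Group means show the size of that spread. Trbc2 averaged 45.4 ± 56.5 (SD, n = 2, protein-coding scale) with IgG and 82.4 ± 83.9 (SD, n = 2) with the antibody, a log2 difference of 1.31 (95% interval -2.57 to 5.19). Cd8a averaged 12.9 ± 16.4 with IgG and 25.0 ± 22.3 with the antibody, a log2 difference of 1.44 (-2.05 to 4.94). For Cd8b1 the means were 10.7 ± 14.7 and 28.1 ± 28.5, and the interval of the log2 difference was -2.14 to 6.11. Cd3g, the 1 negative gene, averaged 5.86 ± 5.20 and 5.09 ± 4.25, with an interval of -2.11 to 1.85. Each of these intervals spans 0 and allows a fall as well as a rise of 1.85 or more on the log2 scale.

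The direction of the difference depended on which library was left out. Without the IgG library G2IA, the differences of all 10 genes were negative, from -0.99 (Cd3g) to -0.066 (Cd8b1) with a median of -0.30. Without the IgG library G1IA, all 10 were positive, from 0.73 to 4.03 with a median of 2.74, and that fit gave the smallest adjusted p of these genes in set 076 under any alternative, 0.0684 for Cd8a. Without D1IA, 7 were positive and 3 negative with a median of 0.17, and without D2IA all 10 were positive with a median of 2.12. Each of these fits leaves 1 library alone on its side, whose spread is then taken from the other side.

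**Figure D3:**
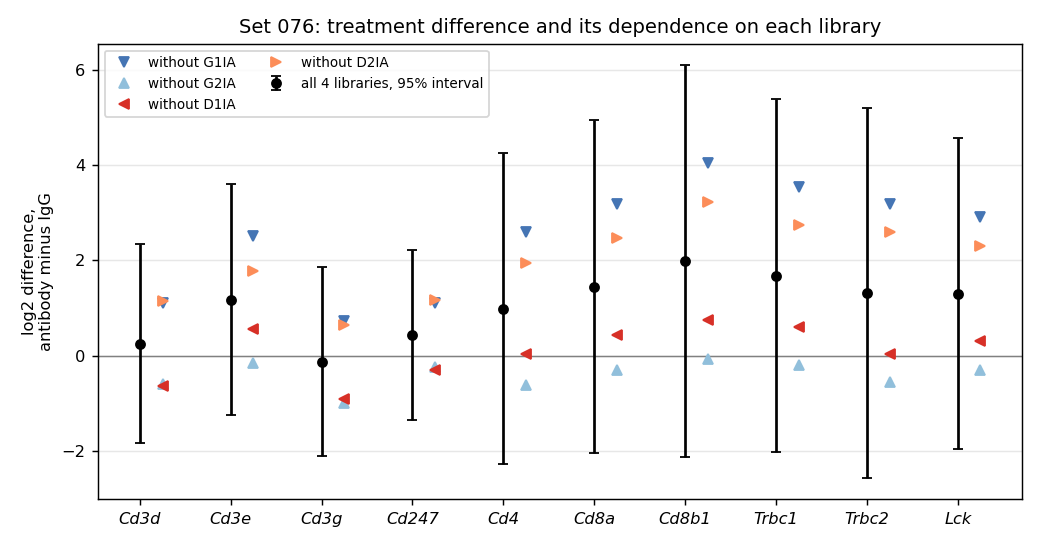
Log2 difference between the Dll1 antibody and IgG libraries of set 076 for each gene, on the protein-coding scale plus 1; black points are fits of all 4 libraries with 95% intervals, and triangles are fits without the named library. All 10 points lie below 0 without G2IA (down to -0.99) and above 0 without G1IA (up to 4.03).

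In set 045, 6 of the 10 genes passed the filter on low values, and Cd3d, Cd3e, Cd3g and Cd8b1 did not. None of the 6 was called, and limma called 0 of 18211 genes (0%), with 752 at an unadjusted p under 0.05. The differences ran from -0.42 (Cd247) to 1.17 (Trbc1), with a smallest adjusted p of 0.827. Cd4 stood on the protein-coding scale at 2.99 and 1.40 in the controls and at 5.17 and 4.85 in the treated libraries, and was the 1 gene of the 6 whose groups did not overlap, against 35.3% of all genes tested in that set. The Cd4 values rest on 5, 4, 4 and 8 reads.

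Treatment fits over all 8 libraries gave no calls among these genes. Over both sets, with the set as a further term, limma called 0 of the 10 genes and 0 of 18170 genes (0%), with 278 of all genes at an unadjusted p under 0.05. The differences ran from -0.36 (Cd3g) to 1.42 (Trbc1), and each adjusted p was 1.00. The difference of the treatment effect between the sets was tested as an interaction, which also called 0 of the 10 genes, with a smallest adjusted p of 0.824. By that test limma called 0 of 18170 genes (0%), with 924 at an unadjusted p under 0.05. None of the 10 genes had an unadjusted p under 0.05 in either fit or in set 045, and limma-voom also called 0 of all genes in these 3 comparisons.

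Between the sets, all 10 genes had a higher fitted level in set 076, and none passed the threshold. With the treatment as a further term, log2 differences of set 076 minus set 045 ran from 0.47 (Cd247) to 3.36 (Trbc2), with a median of 2.16 against -0.27 over all genes tested. The smallest adjusted p by limma was 0.0621 (Cd3g), and 8 of the 10 genes had an unadjusted p under 0.05, against 5333 of all 18170 genes. In the same fit 1729 of 18170 genes (9.52%) were called, 486 higher and 1243 lower in set 076. Limma-voom, with TMM scaling, called 1996 genes, 1139 higher and 857 lower, and none of the 10. The 4 libraries of set 076 lay wholly above those of set 045 for Cd3d and Cd3g, 2 of 10 genes, against 21.0% of all genes tested that did not overlap in either direction. On TPM as deposited, where the median of all genes was itself 2.17 higher in set 076, 6 of the 10 genes passed the filter and all 6 were called higher, as were 10888 of the 11468 genes tested (94.9%), so nothing about the 10 genes is read from these calls. Without G1IA and D1IA, a choice made after seeing the data, Cd247 and Cd4 turned to -0.24 and -0.27 and Trbc2 fell to 1.78. Protein-coding reads were also more numerous in set 076, and their part in these differences was not tested.

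The genes whose profile over the 8 libraries was most like that of the 10 were 4 beta variable segments and Themis. This likeness is a description over libraries whose number of protein-coding reads differs by set. It was the root-mean-square difference between centred log2 values, taken over 18160 other genes that passed the filter. The nearest were Trbv15 at 0.286, Themis at 0.317, Trbv12-2 at 0.327, Trbv29 at 0.352 and Trbv31 at 0.386. Themis, a signalling protein needed for thymocyte selection, was at 8.86, 0.512, 12.2 and 2.97 on the protein-coding scale in G1IA, G2IA, D1IA and D2IA of set 076. The 4 variable segments were at 0 in all of set 045 and in G2IA, so their likeness rests in part on shared zeros. Their reads were few, with Trbv15 at 4, 10 and 1 in G1IA, D1IA and D2IA. The measure is not particular to T cell genes, since the collagen gene Col10a1 ranked 11 at 0.444. Among the 10 genes themselves, Cd8a lay nearest to their common profile at 0.278, and Trbc2 and Cd247 lay farthest at 1.33 and 1.32.

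Variable segments encode the part of the receptor that contacts antigen. Of 35 listed beta segments (Trbv), 18 and 6 had reads in G1IA and G2IA, and 21 and 16 in D1IA and D2IA of set 076, with 63, 9, 103 and 25 reads in that order. Set 045 held 1 Trbv read in all. Of 128 listed alpha segments (Trav), 26 and 0 had reads in G1IA and G2IA, and 30 and 12 in D1IA and D2IA, with 59, 0, 46 and 19 reads. Set 045 held 2, 4, 2 and 9 Trav reads in C1IA, C2IA, D1IA and D2IA. Each of these libraries, with fewer protein-coding reads than G2IA, held more Trav reads than it. Reads were spread over many segments: the Trbv segment with the most, Trbv2, held 18 of 201 over the 8 libraries. Trac, the constant gene of the alpha chain, was at 17.9, 1.35, 23.1 and 2.43 on the protein-coding scale in the libraries of set 076, and Trdc, that of the delta chain, at 3.37, 0.870, 3.26 and 2.47. Related segments share sequence, so reads may be split between them.

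Several genes of immature thymocytes had the order of libraries seen in 9 of the 10 genes. Rag1, a recombinase restricted to developing lymphocytes, was at 61.3 and 1.40 on the protein-coding scale in G1IA and G2IA, and 98.0 and 22.5 in D1IA and D2IA, and at 0, 0, 0 and 7.40 in set 045. Dntt, which adds bases at receptor gene joints, was at 26.7, 0.395, 53.7 and 8.12 in set 076. Rag1 was higher per length than Lck in 3 libraries of set 076, with TPM ratios of 2.72 in G1IA, 2.64 in D1IA and 2.59 in D2IA, and 0.887 in G2IA from 22 and 11 reads. Its ratio to Cd8a was 2.51, 2.41 and 2.43 in the same 3 libraries, and 1.10 in G2IA. Ccr9, a homing receptor of thymocytes, was at 10.7, 0.752, 16.4 and 5.05. The summed level of the 7 thymocyte genes reported was 115 and 3.25 in G1IA and G2IA, and 199 and 42.0 in D1IA and D2IA, and 0 to 29.2 in set 045. Of these 7 genes, 0 were at 0 in G1IA, D1IA and D2IA, 2 in G2IA, and 1 to 7 in the libraries of set 045. None of these 7 genes was called in any treatment comparison, and its part in the levels of the 10 genes was not tested.

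**Figure D4:**
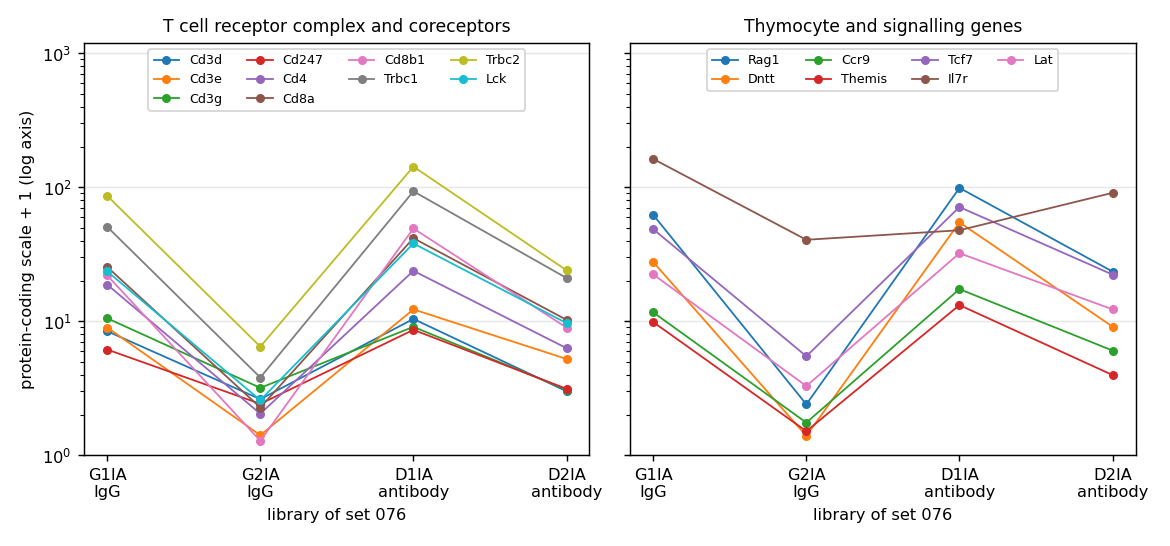
Protein-coding scale plus 1 on a log axis in the 4 libraries of set 076; the left panel shows the 10 genes and the right panel genes of thymocytes and of T cell signalling, and lines join the values of 1 gene. Rag1 (61.3, 1.40, 98.0 and 22.5), Dntt, Ccr9 and Themis have the order seen in 9 of the 10 genes of the left panel, while Il7r does not.

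Thymic epithelial genes were low outside D1IA. Their summed level was 5.13 and 4.13 in G1IA and G2IA, and 25.9 and 3.10 in D1IA and D2IA, and 2.80 to 8.53 in set 045. Of these 6 genes, 1 to 3 were at 0 in the libraries of set 076 and 4 to 5 in those of set 045. Prss16, a thymic protease, accounted for most of the D1IA value at 17.1, and Psmb11, a proteasome subunit of cortical epithelium, was at 0.110, 0.396, 0.479 and 0. D1IA also held other tissue markers: the summed level of 4 parathyroid genes was 988 there against 0.981 to 43.6 in the rest of set 076, and that of 7 fast skeletal muscle genes was 3397 against 8.21 to 262. In set 045 the same sums were 2.77 to 94.7 and 4.97 to 69.2. All genes of both lists had reads in D1IA, while 1 to 2 of the parathyroid genes were at 0 in each other library of set 076, and 0 to 2 of the muscle genes. The part of these tissues in the levels of the 10 genes was not tested.

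The wider T cell lists showed the same libraries high only in part. The T cell marker list of 10 genes, 4 of which are among the genes described, summed to 79.9 and 12.3 in G1IA and G2IA, and 94.0 and 33.2 in D1IA and D2IA. Its highest gene was Lat, the adaptor phosphorylated after receptor engagement, at 21.4, 2.29, 31.2 and 11.3. Of 25 genes of receptor signalling, 24 were tested in set 076 and none passed in either direction, with 20 positive, 4 negative and a median of 0.35. The genes of that list with the highest levels are also made by other cells: Il7r, the interleukin-7 receptor, was at 162, 39.6, 46.8 and 89.9, and Plcg1, a phospholipase, at 51.1, 37.9, 35.6 and 52.3. Of 13 T cell transcription factors 10 were tested, and none passed, with 9 positive, 1 negative and a median of 0.58. Tcf7, which encodes TCF-1, was at 47.7, 4.48, 70.2 and 21.3, the order seen in 9 of the 10 genes, and Zbtb7b was nearly even at 39.8, 45.6, 48.0 and 41.0. Of 10 checkpoint and costimulatory receptors 7 were tested, and none passed, with 2 positive and 5 negative.

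Markers of other immune cells did not share the order of libraries. Cytotoxic and NK cell genes summed to 21.4 and 7.93 in G1IA and G2IA, and 18.0 and 12.5 in D1IA and D2IA, and B cell genes to 50.0, 24.4, 14.0 and 19.9. Plasma cell genes summed to 8465 and 12739 in the IgG libraries and to 558 and 980 in the antibody libraries. Macrophage genes summed to 13600, 6306, 6841 and 9097, so that G2IA was lowest here too, but close to D1IA. Dendritic cell genes summed to 263, 73.8, 95.2 and 158, and genes of lymph node stroma and high endothelium to 179, 244, 84.5 and 165. In set 076 G2IA was lowest for cytotoxic and NK cell, macrophage and dendritic cell genes, and D1IA for B cell and plasma cell genes. No gene of these lists was called in set 076, set 045 or both sets together.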

How the data were processed

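The authors deposited TPM for each gene and library, without pooling; per the file headers 1 column holds 1 library, and each column sums to 1000000. Per the labels' protocols, 100 ng of RNA was depleted of ribosomal RNA and a kit that keeps the strand was used. The submitters' processing notes name hg19, which is human, yet the identifiers are mouse Ensembl ones, so no coordinates were taken from the table; aligner and counter: not given in the sources used here. Columns name a group but no numbered sample, so each was a replicate of its group. The digit in the column names was used as a block only in an added alternative, after the data were seen, and not in the reported fits.

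Gene types and exon lengths came from GENCODE M21 (49326 of 49585 identifiers). In each library TPM multiplied by exon length came out as whole multiples of 1 value (tolerance 1e-06), taken as 1 read, for all 25386 genes above 0 (100%), 5682 of them with a length derived from the steps. TPM was rescaled to 21721 nuclear protein-coding genes, and log2 of that scale with a pseudocount of 1 was tested with limma 3.58.1 in R 4.3.3 (trend, robust), after a filter on a mean of at least 1, two-sided, at an adjusted p of 0.05; the scripts were tested on simulated data. Alternatives were TPM as deposited, a pseudocount of 0.25, no filter, limma-voom on recovered reads (0 genes called in set 076), 1 shared spread, no set term and each library left out. The genes and lists were chosen with earlier results of these data known. Genes named beside the 10 came from the 4 of each list with the highest mean level. The rule also took any gene of a list called for treatment and the 5 genes most alike in profile. Not every such gene is named, and for several lists only the sums are given. Trbv2, Xist, Rn7s1 and Pou2f1 were named with their values known, and motifs were picked by hand. Endothelium, red cell and smooth muscle lists, also fitted, had no called gene in a treatment comparison. 1 gene of the immature thymocyte list is not reported here and was left out of its sums and counts after its values were known.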

Additional observations from a re-analysis of the deposited data

Results flagged for a closer look

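In a group of 4 libraries, 1 library stood apart from the other 3 by Dixon's criterion at the 95% level in 10 of 20 groups. A rate of about 1 in 20 would hold by chance for independent groups with values from 1 normal distribution. These groups are neither, so the 10 are not set against that rate. All 10 concern the same pair of libraries of set 076. The groups of 4 pool both sets, which differ in protein-coding reads, and the genes share libraries.

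Among the IgG libraries, G1IA stood above the rest for 7 genes on the protein-coding scale. It was at 7.98 for Cd3e where the other 3 reached 0.590, at 17.8 for Cd4 (others up to 2.99), at 24.4 for Cd8a (up to 1.99) and at 21.0 for Cd8b1 (up to 1.62). It was at 49.7 for Trbc1 (up to 5.67), at 85.4 for Trbc2 (up to 8.18) and at 22.6 for Lck (up to 1.58).

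Among the antibody libraries, D1IA of set 076 stood above the rest for 3 genes. It was at 22.8 for Cd4 where the other 3 reached 5.30, at 48.3 for Cd8b1 (up to 7.98) and at 142 for Trbc2 (up to 23.0). The cause was not tested.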

How the results depend on the processing

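None of the 10 genes was called in set 076, in set 045 or over both sets under any alternative run, with a smallest adjusted p by limma of 0.0684. The number of all genes called in set 076, 9 in the reported fit, was 22 on TPM as deposited, 0 with limma-voom (284 at an unadjusted p under 0.05), 2 with 1 shared spread, and 27 to 81 with each library left out. Over both sets, TPM as deposited gave 1 call, and for the interaction it gave 134, with 0 to 5 when each library was left out. Between the sets, 1729 became 10898 on TPM as deposited (10888 higher, 10 lower), 913 without the filter, 145 to 3008 with each library left out, and 14 without G1IA and D1IA of set 076; limma-voom gave 1996, 1139 higher and 857 lower. The cause of these changes was not tested.

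With each library of set 076 left out, log2 differences ranged from -0.65 to 1.15 for Cd3d, -0.16 to 2.50 for Cd3e, -0.99 to 0.73 for Cd3g, -0.30 to 1.16 for Cd247, -0.62 to 2.58 for Cd4, -0.30 to 3.19 for Cd8a, -0.066 to 4.03 for Cd8b1, -0.19 to 3.54 for Trbc1, -0.56 to 3.18 for Trbc2 and -0.29 to 2.90 for Lck. In set 045 they ranged from -1.91 to 1.06 for Cd247, -0.18 to 0.42 for Cd8a, -0.19 to 2.54 for Trbc1 and -1.60 to 2.62 for Trbc2. Over both sets they ranged from -0.51 to 0.21 for Cd3d, -0.51 to 0.68 for Cd247, -0.049 to 1.34 for Cd8a and -0.44 to 1.20 for Cd8b1, and between the sets from -0.21 to 0.97 for Cd247. Over both sets the sign also turned for Cd3d with limma-voom (0.18), for Cd247 with the smaller pseudocount (-0.32) and without G1IA and D1IA (-0.16), and for Trbc2 without the libraries that hold Xist (-0.19). Between the sets, Cd247 and Cd4 were at -0.24 and -0.27 without G1IA and D1IA. The column names carry a digit, 1 or 2, within each treatment and set, and whether it marks a pairing is not given. With that digit as a replicate block, chosen after seeing the data, 100 genes were called in set 076 (30 higher, 70 lower), 0 in set 045 (378 at an unadjusted p under 0.05) and 0 over both sets (152), and none of the 10 genes in any of them. The deviations of libraries with the same digit correlated at -0.18 across 17300 genes in set 076 and at -0.16 across 18211 in set 045, and the crossed replicate block called 4, 0 and 0 genes. The low number of protein-coding reads limits set 045, where 3 reads of Trbc2 in D1IA are worth 22.6 on the protein-coding scale.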
